A study of Mus musculus with 24 samples.

Results

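Cells without surface Flk1, the VEGF receptor encoded by Kdr, were sorted from mouse embryoid bodies and compared between 8 d and 95 h of differentiation. Embryoid bodies are aggregates in which embryonic stem cells form the early cell types of the embryo. The 8 arrays compared were all 4 labelled Flk- at 8 d and all 4 labelled Flk- at 95 h, chosen by their titles out of 24 arrays, the others being Flk1- cells at 84 h and Flk1+ cells at the 3 times. Each was a two-colour Agilent mouse development array with the sorted cells' RNA in Cy5 and a common RNA of whole pups in Cy3, both amplified, and no array had exchanged dyes. The stem cell line, its genotype and the age of the pups are not given in the sources used here, and the numbered arrays of a group are not said to be of separate cultures, so the p-values reflect only the spread of these arrays, which may be technical.

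In the embryo, cells of the epiblast leave an epithelium through the primitive streak, lose E-cadherin and become mesoderm or endoderm. Mesoderm later gives mesenchyme, smooth muscle, heart, blood and vessels, and mesenchymal cells make most of the collagen matrix. Flk1 marks the mesoderm that gives blood, vessels and part of the heart. The Flk1- fraction holds the cells without surface Flk1 when sorted, of whatever origin, which at early times include epiblast-like and streak cells. The comparison asks which genes changed in that fraction over the later part of the culture.

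Levels are given as log2 ratios of sample over pup RNA after the median of each array was set to 0. A level above 0 thus means more of an RNA, relative to the median probe, than in pups. The sources used here state neither the log base nor the direction of the deposited values. They were read as log2 of Cy5 over Cy3. This reading rests on means over all 24 arrays of the values as deposited, before the medians were set to 0. Of 25 measured pluripotency genes 20 lay above 0 (median 0.66), while 7 of 9 genes of newborn tissues lay below 0 (median -1.75). As background, 10512 of all 17440 features lay above 0 (median 0.11) in the same deposited values. Another log base would multiply every difference by 1 common factor and turn each fold into another number, with the same calls. A difference is the mean at 8 d minus the mean at 95 h, its error is the standard error (SE) of a limma fit over all 24 arrays, and a gene was called at an adjusted p under 0.05. In sorted populations, fewer cells of a type and less RNA per cell cannot be told apart.

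The 4 arrays of 8 d resembled each other closely, with correlations across features of 0.930 to 0.958, against 0.669 to 0.898 among the arrays of 95 h. Between the times the correlations were 0.599 to 0.737. At 84 h, arrays 2 and 4 of Flk1+ cells had wider spreads of values (SD 1.009 and 1.005) than the other 22 arrays. They correlated with an array of their own group at as little as 0.59 and 0.673, but arrays 1 and 3 fell to 0.59 and 0.615 too. Array 4 of Flk1- cells at 84 h correlated with its group at 0.877 to 0.888, within the range among the arrays of 95 h. An alternative setting left out arrays 2 and 4 of Flk1+ cells and this array, the 3 arrays of 84 h referred to below. Kdr RNA lay below 0 in both groups. The sort was on the surface protein, and Kdr levels of Flk1+ cells are not given here, so these values do not check the sort. Kdr gave -0.34, -0.35, -0.29 and -0.28 at 8 d, against -1.30, -1.0, -1.02 and -1.0 at 95 h. The groups did not overlap, and the difference of 0.77 (SE 0.23, adjusted p = 0.0248) was called, but the call ended in 5 of the 18 alternative settings tried.

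Of 17440 features tested, 3080 (17.7%) were called, of which 1723 (9.88%) were higher and 1357 (7.78%) lower at 8 d. The count was 5087 without those 3 arrays of 84 h, with 2548 higher and 2539 lower, and 6692 with array weights, with 3182 higher and 3510 lower. After quantile normalization 2135 were higher and 2456 lower, so the excess of higher calls depends on the setting. Among the 8973 features that carry a gene name, 1345 (15%) were higher and 764 (8.51%) lower, which is the nearer background for the gene lists below. Some genes belong to several lists, so the lists are not independent of each other. A difference of at least 1 was reached by 470 called features (2.69%) that were higher and 186 (1.07%) that were lower. The arrays of the 2 times did not overlap for 4846 features (27.8%), and 2764 (15.8%) were both called and free of overlap. The median difference was -0.03 over all features and 0.01 over named genes.

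Genes of mesenchyme and its matrix were among the largest rises. Postn encodes periostin, a matrix protein of fibroblasts, and it had the largest difference of all features. It gave 0.73, 0.86, 0.34 and 0.61 at 8 d, against -4.82, -4.45, -5.17 and -5.19 at 95 h. Every array of 8 d thus lay above the pup reference and every array of 95 h far below it. The difference was 5.54 (SE 0.19, adjusted p = 1.26e-14) or 46.6-fold.

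Snai2 encodes a zinc-finger repressor of E-cadherin that is found in migrating mesenchyme and neural crest. Its levels were 2.20, 2.28, 1.84 and 1.98 at 8 d, against -1.74, -1.28, -0.93 and -1.59 at 95 h (difference 3.46, SE 0.21, adjusted p = 8.55e-11, 11-fold). Cdh11, which encodes the mesenchymal cadherin 11, had 1.60, 1.5, 1.12 and 1.27 at 8 d, against -2.30, -1.46, -1.62 and -1.75 at 95 h (difference 3.15, SE 0.39, adjusted p = 4.39e-06). For both genes the lowest array of 8 d was more than 2 units above the highest array of 95 h. Dcn, the small proteoglycan decorin, rose by 3.13 (SE 0.22), although at -0.63 to -1.33 it still lay below the pup level at 8 d.

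**Figure D1:**
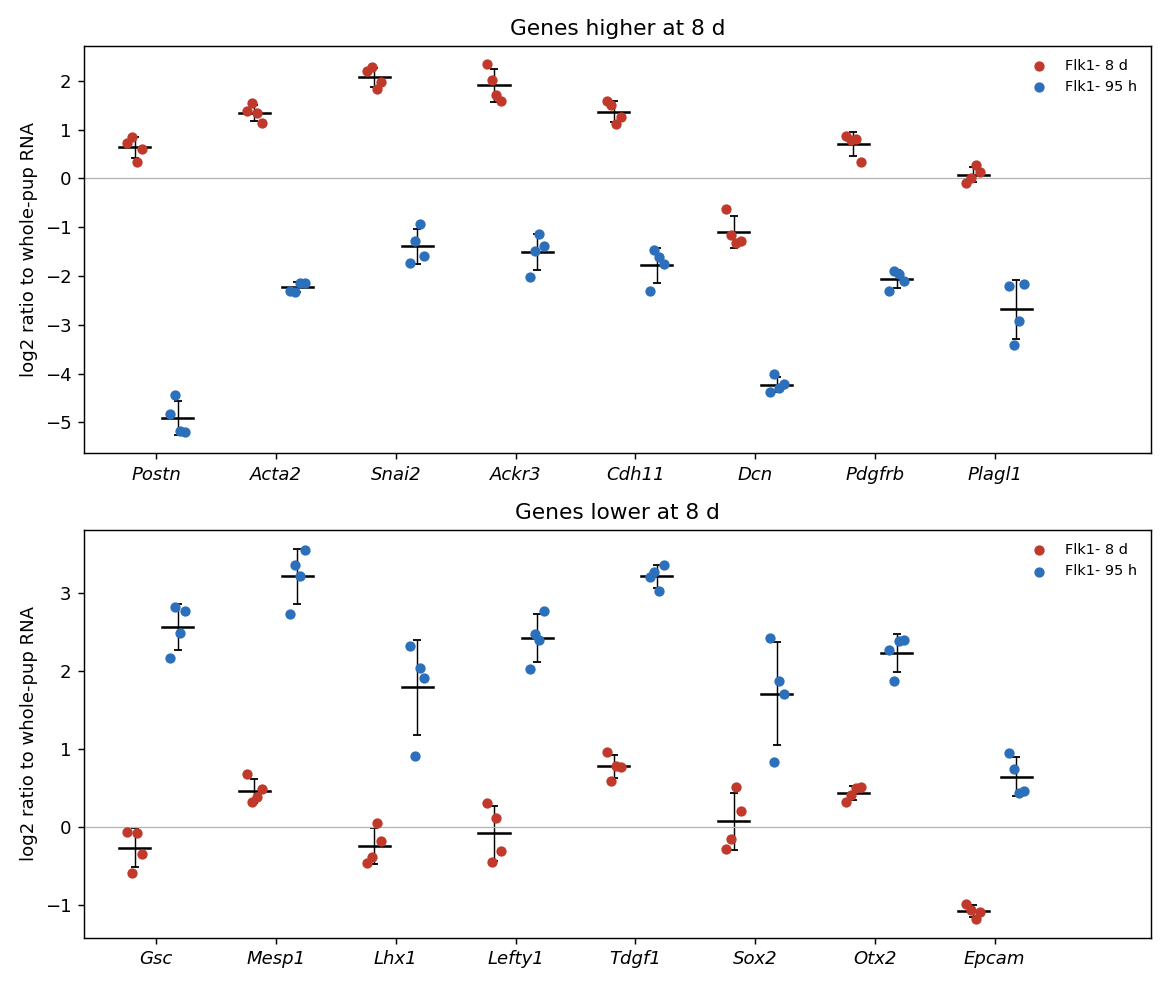
Log2 ratio to whole-pup RNA (vertical axis) of 8 genes that rose and 8 that fell in Flk1- cells, with 4 arrays at 8 d (red, left of each pair) and 4 at 95 h (blue). Long bars are means and whiskers are SDs of 4 arrays. In each of the 16 genes the 2 groups are apart, as for Postn with 0.34 to 0.86 at 8 d against -5.19 to -4.45 at 95 h.

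The other named genes among the 15 largest rises were of mixed roles. Ackr3, a scavenging receptor of the chemokine Cxcl12, rose by 3.42 (SE 0.25, 10.7-fold), and Masp1, a protease of the lectin branch of complement, by 3.30 (SE 0.18). Cd248, also known as endosialin and found on pericytes and fibroblasts, rose by 2.98 (SE 0.15). Pmp22, a membrane protein best known from peripheral myelin, rose by 3.15 (SE 0.28), and Itm2a, Zadh2 and Emp3 rose by 3.28, 3.17 and 2.94.

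Of 14 measured mesenchymal and fibroblast genes, 6 were higher, 0 lower and 8 not called, with a median difference of 0.37. Beside Snai2 and Cdh11 these included S100a6, a calcium-binding protein, at 1.83 (SE 0.18), Vim, the intermediate filament vimentin, at 1.35 (SE 0.15), and Tcf21, a factor of epicardial and visceral mesenchyme, at 1.14 (SE 0.18). Twist1, another repressor of epithelial genes, did not pass. Its arrays gave 0.02, -0.39, -0.03 and -0.27 at 8 d, against -1.44, -0.57, -0.53 and -0.54 at 95 h (difference 0.60, adjusted p = 0.0636, or 0.0441 with the arrays of both sorts paired by number within each time). The groups did not overlap, and array 1 of 95 h lay apart from the other 3.

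Collagen genes rose in part. Among 19 measured fibrillar and network collagens 7 were higher, 0 lower and 12 not called, with a median of 0.26. The largest were Col4a5, a basement membrane chain, at 2.38 (SE 0.19), Col18a1 at 1.62 (SE 0.23), Col4a1 at 1.53 (SE 0.31) and Col5a1, a chain that regulates fibril width, at 1.5 (SE 0.16). Of the major fibrillar chains Col1a2 rose by 1.08 (SE 0.17, adjusted p = 8.02e-05). Col1a1, the other chain of type I collagen, had -0.12, -0.07, 0.04 and -0.12 at 8 d, against -0.22, 0.01, -0.21 and -0.07 at 95 h. These groups overlapped, and the difference of 0.05 (SE 0.12, adjusted p = 0.817) was not called. Col3a1 was not called either at 0.26 (SE 0.14), and its 2 probes gave -0.06 and 0.59.

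In the list of collagen processing and matrix assembly 15 of 21 measured genes were higher, 0 lower and 6 not called, with a median of 1.02. Pcolce enhances the enzyme that trims procollagen, and it led the list. It had 0.30, 0.02, 0.02 and -0.14 at 8 d, against -3.23, -2.89, -2.71 and -2.90 at 95 h, with groups far apart (difference 2.98, SE 0.16, adjusted p = 2.04e-11, 7.9-fold). P3h1, a prolyl hydroxylase, and Plod2, a lysyl hydroxylase, rose by 1.81 (SE 0.16) and 1.77 (SE 0.21). Serpinh1, the collagen chaperone, rose by 1.47 (SE 0.23) and Lox, which crosslinks collagen and elastin, by 1.06 (SE 0.14). Sparc, a collagen-binding glycoprotein, rose by 1.56 (SE 0.28) while its arrays of 95 h ran from -2.62 to -0.87.

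Proteins that modulate matrix and the proteases that cut it shared the direction. Of 21 small proteoglycans and matricellular genes 11 were higher, 0 lower and 10 not called, with a median of 0.49. Tgfbi, an adhesion protein induced by TGF-beta, rose by 2.83 (SE 0.22), Ccn2, also known as connective tissue growth factor, by 2.02 (SE 0.35) and Fn1, fibronectin, by 1.26 (SE 0.15). Among 10 laminins and nidogens 6 were higher, 0 lower and 4 not called, with a median of 0.68 and with Lamb2 at 2.47 (SE 0.22), Nid1 at 1.59 (SE 0.23) and Nid2 at 1.33 (SE 0.28). Matrix proteases and their inhibitors had 12 of 20 higher, 0 lower and 8 not called, with a median of 0.64. Adamts1 and Adamts5, which cleave large proteoglycans, rose by 2.85 (SE 0.34) and 2.58 (SE 0.30), and the metalloproteinase genes Mmp23 and Mmp14 by 2.38 (SE 0.20) and 1.75 (SE 0.22).

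Smooth muscle and mural genes were higher in part. In this list 9 of 24 measured genes were higher, 1 lower and 14 not called, with a median of 0.25. Acta2, smooth muscle alpha-actin, had 1.38, 1.54, 1.33 and 1.13 at 8 d, against -2.31, -2.33, -2.15 and -2.14 at 95 h. The spread within either group was small beside the difference of 3.58 (SE 0.11, adjusted p = 1.64e-15), or 11.9-fold. Pdgfrb, the PDGF receptor of pericytes and smooth muscle, rose by 2.76 (SE 0.16), Csrp2, a LIM-domain protein of smooth muscle, by 1.49 (SE 0.19), and Myl9, a regulatory myosin light chain, by 1.24 (SE 0.15). Tpm2, a tropomyosin, and Cnn2, a calponin found in many cell types, rose by 1.10 (SE 0.16) and 1.11 (SE 0.18).

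Other members of the same list did not rise. Cnn1, the calponin of contractile smooth muscle, was the 1 lower member, with -1.19, -0.89, -1.10 and -1.31 at 8 d, against 0.08, -0.33, -0.32 and -0.35 at 95 h (difference -0.89, SE 0.14, adjusted p = 6.32e-05). The groups did not overlap. Myh11, smooth muscle myosin heavy chain, was not called at -0.22 (SE 0.26), nor was Des, the filament desmin, at -0.19 (SE 0.26). Both lay below -1 on each of the 8 arrays.

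Many smooth muscle and heart muscle genes carry a CArG box, the site of serum response factor, which reads CC, then 6 letters that are each A or T, then GG, and is the same on both strands. In the 250 bases before the gene start (RefSeq promoter table, build GRCm38.p6), 4 of 19 measured smooth muscle and mural genes with an entry held this letter pattern (21.1%), against 439 of 27025 genes (1.62%), as did 3 of 21 cardiac genes. The lists were picked for muscle genes, so the shares are a description. Acta2 held none, but 2 stretches in which 1 of the 6 middle letters is C or G, as 9.78% of all genes have in exact or 1-letter-off form. The windows are shown for 3 smooth muscle genes that rose and for Myl7, a cardiac gene that rose, with the matches in capitals. They lie at chr19:34255374-34255623 (minus strand) for Acta2, chr2:156775214-156775463 (plus strand) for Myl9, chr10:79988350-79988599 (plus strand) for Cnn2 and chr11:5898783-5899032 (minus strand) for Myl7.
Acta2: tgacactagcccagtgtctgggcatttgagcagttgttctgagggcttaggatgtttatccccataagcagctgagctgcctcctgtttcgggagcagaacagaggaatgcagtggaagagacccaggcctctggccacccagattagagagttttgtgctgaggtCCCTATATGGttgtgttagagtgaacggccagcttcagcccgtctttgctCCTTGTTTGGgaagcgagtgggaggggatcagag
Myl9: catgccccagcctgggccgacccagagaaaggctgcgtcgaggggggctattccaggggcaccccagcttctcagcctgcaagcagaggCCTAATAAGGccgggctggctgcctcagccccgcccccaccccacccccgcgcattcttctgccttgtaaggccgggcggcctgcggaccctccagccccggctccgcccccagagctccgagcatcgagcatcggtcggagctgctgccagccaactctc
Cnn2: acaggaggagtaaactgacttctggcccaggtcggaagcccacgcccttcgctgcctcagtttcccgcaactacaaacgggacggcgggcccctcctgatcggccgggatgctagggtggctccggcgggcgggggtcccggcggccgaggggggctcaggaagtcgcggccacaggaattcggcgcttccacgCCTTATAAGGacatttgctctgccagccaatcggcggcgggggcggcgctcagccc
Myl7: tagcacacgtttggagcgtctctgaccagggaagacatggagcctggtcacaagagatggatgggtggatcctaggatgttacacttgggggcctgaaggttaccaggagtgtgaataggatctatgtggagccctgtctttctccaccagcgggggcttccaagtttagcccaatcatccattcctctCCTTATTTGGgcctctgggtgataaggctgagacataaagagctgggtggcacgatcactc
Read 5′ to 3′ and ending at the gene start, the matches begin 84 and 34 bases before it in Acta2, 161 in Myl9, 56 in Cnn2 and 61 in Myl7. A match is a run of letters and not evidence of binding. Among the genes whose windows held an exact match, Myl6, a myosin light chain, was not called at 0.55 (adjusted p = 0.133), nor was Actc1, cardiac alpha-actin, at 0.11 (adjusted p = 0.753). Srf and Myl3 held an exact match too, and their changes are not given here.

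Heart genes rose in part. Of 23 measured cardiac genes 10 were higher, 1 lower and 12 not called, with a median of 0.24. Hand1, a basic helix-loop-helix factor of heart and extraembryonic mesoderm, had 2.50, 2.35, 2.48 and 2.18 at 8 d, against 0.25, 0.82, 1.15 and 1.13 at 95 h (difference 1.54, SE 0.23, adjusted p = 5.01e-05). All arrays of 8 d lay above those of 95 h. Its relative Hand2 rose by 1.18 (SE 0.26) and Ankrd1, a stress-responsive muscle protein, by 1.52 (SE 0.18).

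The contractile members included Myl7, the atrial light chain, which had 0.83, 0.99, 0.27 and 0.53 at 8 d, against -1.19, -0.83, -0.54 and -0.84 at 95 h (difference 1.51, SE 0.25, adjusted p = 0.000134). Myl4, another atrial light chain, rose by 1.47 (SE 0.16), Tnni1, the slow skeletal and fetal cardiac troponin I, by 1.26 (SE 0.20), and Tnnt2, cardiac troponin T, by 1.11 (SE 0.14). Tnni3, the troponin I of the adult heart, was the 1 lower member at -0.76 (SE 0.11), and all its arrays lay below -0.9. Nkx2-5, an early heart regulator, stayed near 0 in both groups and was not called at -0.04 (SE 0.10).

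Signalling genes of the TGF-beta family had called members in both directions. The BMP and TGF-beta list had 12 higher, 3 lower and 18 uncalled genes of 33 measured, with a median of 0.30. Among ligands Tgfb2 rose by 1.64 (SE 0.14) and Bmp4 by 0.91 (SE 0.16). Fstl1, a secreted follistatin-related protein, had -0.35, -0.28, -0.58 and -0.54 at 8 d, against -2.83, -2.37, -2.27 and -2.60 at 95 h (difference 2.08, SE 0.14, adjusted p = 7.96e-10). Id2, an inhibitor of differentiation factors and a target of BMP, rose by 1.56 (SE 0.27). Fst, follistatin, which binds activin, fell by 1.51 (SE 0.30), and Smad1, a transducer of BMP signals, fell by 1.02 (SE 0.20). The third lower member, Gdf3, is counted with pluripotency genes too.

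For the FGF, VEGF, PDGF and angiopoietin genes 8 of 26 were higher, 4 lower and 14 not called, with a median of 0.15. Nrp1, a coreceptor for VEGF and semaphorins, rose by 2.45 (SE 0.11), with its 3 probes at 1.33 to 3.80. Angpt2, a ligand of the Tie2 receptor, and Pdgfc, a PDGF ligand, rose by 1.33 (SE 0.24) and 1.20 (SE 0.15). The FGF genes of the epiblast and streak went the other way. Fgf5, made by epiblast, had 0.38, 0.44, 0.31 and 0.48 at 8 d, against 1.52, 1.32, 1.76 and 2.18 at 95 h, a fall of all 4 arrays below all of 95 h (difference -1.29, SE 0.19, adjusted p = 3.53e-05). Fgf8, made by the streak, fell by 0.99 (SE 0.18), with its 2 probes at -1.55 and -0.43.

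Among Wnt genes a ligand and a secreted inhibitor were among the 15 largest rises. Wnt2, a ligand of heart, lung and placental mesenchyme, had 2.67, 1.52, 2.11 and 1.85 at 8 d, against -1.33, -1.07, -0.86 and -0.58 at 95 h. Its arrays of 8 d were all well above those of 95 h (difference 3.00, SE 0.23, adjusted p = 5.83e-09). It was 1 of 4 higher members among 13 Wnt ligands and receptors, with 0 lower and a median of 0.05. The coreceptor genes Ryk and Ror2 rose by 0.85 (SE 0.14) and 0.81 (SE 0.18).

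Dkk2, a secreted modulator of Wnt coreceptors, had 1.49, 0.86, 0.84 and 1.27 at 8 d, against -1.48, -1.65, -2.22 and -2.16 at 95 h (difference 2.99, SE 0.25, adjusted p = 1.2e-08). With Dkk3 at 1.11 (SE 0.14) it made 2 higher members of 5 secreted inhibitors, and 0 were lower. Of 20 intracellular components 2 were higher, 0 lower and 18 not called, with a median of -0.01. Nkd1, an inhibitor that Wnt signals induce, was the larger at 1.70 (SE 0.21) and also the 1 called gene among 5 Wnt target genes.

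Part of the Hedgehog and insulin-like growth factor genes rose, and none was called lower. In the Hedgehog list 5 of 9 were higher and 0 lower, with a median of 0.49, and the coreceptor genes Gas1 and Boc and the factor gene Gli2 rose by 2.01 (SE 0.22), 0.89 (SE 0.14) and 0.85 (SE 0.15). Gli1, a common readout of Hedgehog activity, gave -1.14, -1.22, -1.14 and -1.37 at 8 d, against -1.26, -1.30, -1.02 and -1.37 at 95 h. These overlap throughout, with a difference of 0.02 (SE 0.15, adjusted p = 0.944). Of 8 insulin-like growth factor genes 4 were higher and 0 lower, among them the binding proteins Igfbp5 at 2.64 (SE 0.19) and Igfbp4 at 1.60 (SE 0.17).

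Imprinted genes, which are expressed from 1 parental copy and many of which act on fetal growth, had 9 of 14 higher, 2 lower and 3 not called, with a median of 0.94. The largest rise of this list, at 3.13, is that of Dcn, given above with the matrix genes. Plagl1, a zinc-finger factor, had -0.10, 0.02, 0.28 and 0.12 at 8 d, against -2.20, -3.42, -2.93 and -2.17 at 95 h (difference 2.76, SE 0.27, adjusted p = 1.59e-07). Its groups were more than 2 units apart. Cdkn1c, an inhibitor of cyclin-dependent kinases, rose by 2.57 (SE 0.20), Dlk1, a Notch-related membrane protein, by 1.62 (SE 0.18) and Ndn, necdin, by 1.17 (SE 0.15). Igf2, the fetal growth factor, rose by 1.59 (SE 0.16) over 2 probes that gave 0.38 and 2.80.

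The 2 lower imprinted members rest on less. H19 differed by -0.26 (SE 0.09, adjusted p = 0.0489, or 0.0508 with the sorts paired), a call that ended in 12 of 18 alternative settings. Ascl2, a trophoblast factor, had -1.49, -1.13, -1.43 and -1.17 at 8 d, against 1.99, -0.68, -0.50 and -0.65 at 95 h (difference -1.35, SE 0.39, adjusted p = 0.0173). Array 1 of 95 h stood far above the other 3, and without it the difference was -0.70 and still called, as it was at -0.84 with array weights. In a fit of the 8 compared arrays alone it was not called, without the replicate number as a block (adjusted p = 0.108) or with it (adjusted p = 0.113).

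Inhibitors of the cell cycle were higher where called, while cell cycle genes had calls in both directions. Of 15 inhibitors 7 were higher, 0 lower and 8 not called, with a median of 0.42, and Cdkn2b, the p15 inhibitor, rose by 1.42 (SE 0.20) beside Cdkn1c. Of 38 cell cycle genes 4 were higher, 6 lower and 28 not called, with a median of -0.09. Among all named genes 15% were higher and 8.51% lower, so calls in both directions are not particular to this list. The replication helicase genes Mcm2 and Mcm5 fell by 1.06 (SE 0.18) and 0.76 (SE 0.15), whereas the cyclin genes Ccnd3 and Ccnd2 rose by 1.30 (SE 0.17) and 0.96 (SE 0.14). The proliferation marker Mki67 was not called at 0.18 (SE 0.21).

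Primitive streak genes included the largest fall of all features. Gsc, a homeobox factor of the anterior streak, had -0.06, -0.59, -0.07 and -0.35 at 8 d, against 2.17, 2.82, 2.49 and 2.77 at 95 h. Each array of 8 d lay below the pup level and each array of 95 h above it (difference -2.83, SE 0.18, adjusted p = 2.16e-10, 7.11-fold lower). Mesp1, a factor of nascent cardiovascular mesoderm, had 0.67, 0.32, 0.39 and 0.48 at 8 d, against 2.73, 3.36, 3.21 and 3.56 at 95 h (difference -2.75, SE 0.28, adjusted p = 2.29e-07). Of 11 measured streak genes 0 were higher, 7 lower and 4 not called, with a median of -0.72. Lhx1, a LIM homeobox factor of the streak and node, fell by 2.04 (SE 0.27), and Eomes, a T-box factor of mesendoderm, fell by 0.84 (SE 0.15).

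Pluripotency and epiblast genes fell with them. Tdgf1, the Nodal coreceptor Cripto, had 0.96, 0.59, 0.79 and 0.77 at 8 d, against 3.20, 3.27, 3.02 and 3.36 at 95 h (difference -2.44, SE 0.24, adjusted p = 1.58e-07). Lefty1, a secreted Nodal inhibitor, had 0.31, -0.44, 0.12 and -0.30 at 8 d, against 2.03, 2.48, 2.4 and 2.77 at 95 h (difference -2.50, SE 0.17, adjusted p = 8.47e-10). In neither gene did the groups come within 1 unit of each other. The pluripotency list had 16 lower, 1 higher and 8 uncalled genes of 25 measured, with a median of -0.72.

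The core factor genes Sox2 and Nanog fell by 1.64 (SE 0.37) and 1.11 (SE 0.15), and the chromatin-associated genes Utf1 and Dppa4 fell by 1.19 (SE 0.14) and 1.12 (SE 0.23). The 1 higher member, Klf4, a Krüppel-like factor also made by differentiated cells, was at 0.88 (SE 0.28, adjusted p = 0.0334), and its call ended in 9 of 18 alternative settings, with 0.56 without array 4 of 95 h and 1.41 with array weights. Of 10 genes of epiblast and DNA methylation 1 was higher, 6 lower and 3 not called, with a median of -1.27. Otx2, an epiblast and forebrain factor, fell by 1.79 (SE 0.15). Dnmt3b and Dnmt3l, which take part in placing new DNA methylation, fell by 1.61 (SE 0.14) and 1.24 (SE 0.16), while Dnmt1, the maintenance methyltransferase, was not called at -0.13 (SE 0.12).

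Other genes among the 15 largest falls were Trh, which encodes thyrotropin-releasing hormone, at -2.79 (SE 0.17), Car2, a carbonic anhydrase, at -2.58 (SE 0.25), and the kinase genes Sgk1 and Pim2 at -2.07 (SE 0.23) and -1.94 (SE 0.11). Vrtn, a gene of vertebral patterning, was at -2.03 (SE 0.21) and Stmn2, a neuronal microtubule protein, at -1.93 (SE 0.11). Germ cell genes had 0 of 9 higher and 4 lower, with a median of -0.42. Sycp3, a component of the meiotic chromosome axis, had 0.33, 0.10, -0.29 and 0.02 at 8 d, against 2.56, 2.23, 3.15 and 2.51 at 95 h (difference -2.57, SE 0.41, adjusted p = 9.29e-05). The germ line helicase gene Ddx4 fell by 1.07 (SE 0.25).

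Epithelial genes went both ways. Cdh1, E-cadherin, had -0.40, -0.90, -0.56 and -0.68 at 8 d, against 0.50, 1.39, 1.25 and 1.03 at 95 h (difference -1.68, SE 0.34, adjusted p = 0.00113). Epcam, an adhesion molecule of epithelia and pluripotent cells, fell by 1.73 (SE 0.29), and the tight junction genes Cldn6 and Cldn3 fell by 0.99 and 0.94 (SE 0.16 each). Cdh3, P-cadherin, moved against Cdh1, with 2.21, 2.66, 2.47 and 2.48 at 8 d and 0.05, -0.61, -0.25 and -0.10 at 95 h (difference 2.68, SE 0.13, adjusted p = 3.48e-12). Its groups were over 2 units apart. Krt8, a simple epithelial keratin, rose by 0.60 (SE 0.12), and over 25 measured epithelial genes 5 were higher, 9 lower and 11 not called, with a median of -0.11.

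Genes that build ribosomes fell in part, and most ribosomal protein genes were not called. Of 18 measured genes of ribosome biogenesis and translation 0 were higher, 9 lower and 9 not called, with a median of -0.63. Nop56, a core protein of box C/D small nucleolar particles, had 0.45, 0.22, 0.73 and 0.33 at 8 d, against 2.83, 1.18, 1.61 and 1.75 at 95 h (difference -1.41, SE 0.30, adjusted p = 0.00207). Dkc1, Gar1 and Nhp2, subunits of the pseudouridine-making particles, fell by 1.34 (SE 0.26), 1.28 (SE 0.23) and 1.84 (SE 0.48), and Polr1b, a subunit of RNA polymerase I, fell by 1.01 (SE 0.18). Myc, a regulator of these genes, was not called at -0.08 (SE 0.14). Of 26 cytosolic ribosomal proteins 1 was higher, 3 lower and 22 not called. Rpl39l, a near copy of Rpl39 known from testis and stem cells, fell by 2.43 (SE 0.18), and whether its probe also reads Rpl39 was not tested.

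Genes of antigen presentation and interferon response were lower where called, with 1 exception. Of 16 measured 1 was higher, 7 lower and 8 not called, with a median of -0.16. Psmb8, an immunoproteasome subunit, had -0.95, -1.0, -1.0 and -1.12 at 8 d, against 0.66, 0.07, 1.24 and 0.88 at 95 h (difference -1.73, SE 0.18, adjusted p = 3.89e-07). Bst2, an interferon-induced antiviral membrane protein, fell by 1.91 (SE 0.27), Irf1, an interferon regulatory factor, fell by 1.28 (SE 0.13), and Tapbp, which loads peptides onto MHC class I, fell by 0.94 (SE 0.12). B2m, the light chain of MHC class I, was the higher one at 0.90 (SE 0.16).

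Lysosomal genes and immediate early genes rose in part. Of 17 lysosomal genes 9 were higher and 0 lower, with a median of 0.74, among them Lgmn, a lysosomal protease, at 1.68 (SE 0.20) and Psap, the precursor of the saposins, at 0.97 (SE 0.23). Egr1, an immediate early transcription factor induced within minutes by serum or handling, had 2.45, 2.46, 2.33 and 2.16 at 8 d, against 0.41, 0.24, 0.83 and 0.47 at 95 h (difference 1.86, SE 0.20, adjusted p = 4.7e-07). Fos and Ier2 rose by 1.79 and 1.62 (SE 0.20 each). The immediate early and heat shock list had 5 of 15 higher and 3 lower, and the lower ones were heat shock proteins, as Hspb1 at -0.69 (SE 0.16). The part of cell handling in these values was not tested.

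Markers of blood, vessels and endoderm were checked because the Flk1- gate could hold such cells. The embryonic globin gene Hbb-y had 2.16, 2.02, 2.17 and 2.01 at 8 d, against 0.33, -0.51, -0.16 and -0.20 at 95 h (difference 2.22, SE 0.14, adjusted p = 1.68e-10), and Hba-x rose by 1.22 (SE 0.22). With Klf1, an erythroid factor, at 0.77 (SE 0.19) they made 3 higher of 9 erythroid genes, the 1 lower being Car2. In the leukocyte and platelet list 3 of 11 genes were higher and 1 lower. Plek, a platelet and leukocyte protein, rose by 1.92 (SE 0.27), Laptm5, a lysosomal protein of blood cells, fell by 1.33 (SE 0.28), or by 0.81 with array weights, and Ptprc, the pan-leukocyte marker CD45, was not called at 0.70 (adjusted p = 0.215).

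The endothelial list had 5 higher, 2 lower and 14 uncalled genes of 21, with a median of -0.07. Among all named genes 15% were higher and 8.51% lower. Efnb2, an arterial ephrin, and Cdh5, the endothelial VE-cadherin, rose by 1.29 (SE 0.17) and 0.95 (SE 0.15), but Cdh5 lay between -2.11 and -1.97 at 8 d, below the pup level. Flt1, another VEGF receptor, fell by 0.64 (SE 0.16), and Pecam1, an endothelial adhesion molecule, was not called at -0.21 (SE 0.10). Of 14 endoderm genes 3 were higher and 3 lower. Ttr, transthyretin of yolk sac and liver, had -1.07, -1.24, -1.13 and -1.52 at 8 d, against -2.66, -3.49, -2.96 and -3.35 at 95 h (difference 1.87, SE 0.16, adjusted p = 1.36e-08). Dab2, an endocytic adaptor of visceral endoderm, rose by 0.85 (SE 0.17). The part of these cell types in the matrix and muscle results was not tested.

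The 8 d minus 95 h change in Flk1- cells was set against the same change in Flk1+ cells, which rests on 8 other arrays and called 3861 features (22.1%), 2238 (12.8%) higher and 1623 (9.31%) lower. The change itself differed between the sorts for 93 features (0.533%), 32 with a more positive and 61 with a more negative change in Flk1- cells. After quantile normalization of the arrays these counts were 59 and 57. The total was 314 without the 3 arrays of 84 h and 288 with array weights. Same-numbered arrays of the 2 sorts deviated together within a time at 8 d and 95 h, but not in every pair at 84 h. A random block that paired the sorts by number within each time, 84 h included, called 251 features (1.44%). These were 75 more positive and 176 more negative, including all 93. Among them were 9 further genes named here, with Sox2 at -1.70, Angpt2 at -1.33, Jarid2 at -1.31, Csrp2 at -1.09, Cnn1 at -0.75 and Irf1 at -0.69, and with Igfbp4 at 0.94, Ankrd1 at 0.92 and Bmp4 at 0.80 (adjusted p = 0.0134 to 0.0474 with the block). Leaving out single arrays lowered the count of 93 to 47, 50 and 57 without array 1, 2 or 3 of Flk1+ cells at 8 d, and 59, 61 and 51 without array 2, 3 or 4 of Flk1- cells at 8 d. Postn and Acta2, which led the rises, were not called in either fit. Postn rose by 5.54 in Flk1- and 5.87 in Flk1+ cells, with a difference of the changes of -0.33 (adjusted p = 0.927), and Acta2 rose by 3.58 in Flk1- and 3.69 in Flk1+ cells, with a difference of -0.11 (adjusted p = 0.984).

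Of 23 measured cardiac genes 4 were among the 93 differences, as were 4 of 25 pluripotency genes. The background is 0.533% of all features, and 73 of the 8973 named genes. Antigen presentation and epithelial genes had 3 of 16 and 3 of 25. Myl7 averaged 0.66 ± 0.32 at 8 d and -0.85 ± 0.26 at 95 h in Flk1- cells, while in Flk1+ cells it averaged -0.05 ± 0.32 at 8 d and 0.59 ± 0.24 at 95 h (SD, n = 4 each). Its change was thus more positive in Flk1- cells by 2.15 (adjusted p = 0.00347). Hand1 averaged 2.38 ± 0.15 at 8 d and 0.84 ± 0.42 at 95 h in Flk1- cells, and 1.99 ± 0.38 at 8 d and 2.11 ± 0.22 at 95 h in Flk1+ cells, which differed by 1.66 (adjusted p = 0.019). Myl4 differed by 1.39 in the same direction and Tnni3 by -0.78. The calls of Hand1 and Tnni3 ended without array 1 or 2 of Flk1+ cells at 8 d, and that of Tnni3 in 3 other settings too. By their means, Flk1- cells exceeded Flk1+ cells in Myl7 and Hand1 at 8 d and lay below them in both genes at 95 h.

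Tbx3, a T-box factor of early mesoderm and heart, had the largest positive difference at 2.58 (SE 0.25, adjusted p = 1.33e-05). It was flat in Flk1- cells, with 0.47 ± 0.15 at 8 d and 0.56 ± 0.17 at 95 h, but averaged -0.12 ± 0.22 at 8 d and 2.55 ± 0.26 at 95 h in Flk1+ cells (SD, n = 4 each). Ttr rose by 1.87 in Flk1- cells and changed by -0.15 in Flk1+ cells, a difference of 2.02 (adjusted p = 3.78e-05). Ccnd2 rose by 0.96 in Flk1- cells and fell by 0.49 in Flk1+ cells, a difference of 1.45 (adjusted p = 0.000658).

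Among the negative differences, Lefty1 was high in Flk1- cells at 95 h and near 0 in the other 3 groups of this comparison. It averaged -0.08 ± 0.35 at 8 d and 2.42 ± 0.31 at 95 h in Flk1- cells, and -0.16 ± 0.12 at 8 d and -0.02 ± 0.23 at 95 h in Flk1+ cells (SD, n = 4 each). The change differed by -2.36 (adjusted p = 2.36e-05). Rpl39l fell by 2.43 in Flk1- cells and changed by -0.29 in Flk1+ cells, a difference of -2.14 (adjusted p = 6.44e-05), and Bst2 fell by 1.91 in Flk1- cells and changed by 0.01 in Flk1+ cells, a difference of -1.92 (adjusted p = 0.019) whose call ended without array 1 of Flk1+ cells at 8 d. The endothelial gene Cdh5 rose by 0.95 in Flk1- and 2.92 in Flk1+ cells, a difference of -1.97 (adjusted p = 3.78e-05). Klf2, a flow-responsive factor of endothelium, had the most negative difference at -2.53, with a change of -0.47 in Flk1- cells that was not called and a rise of 2.06 in Flk1+ cells.

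**Figure D2:**
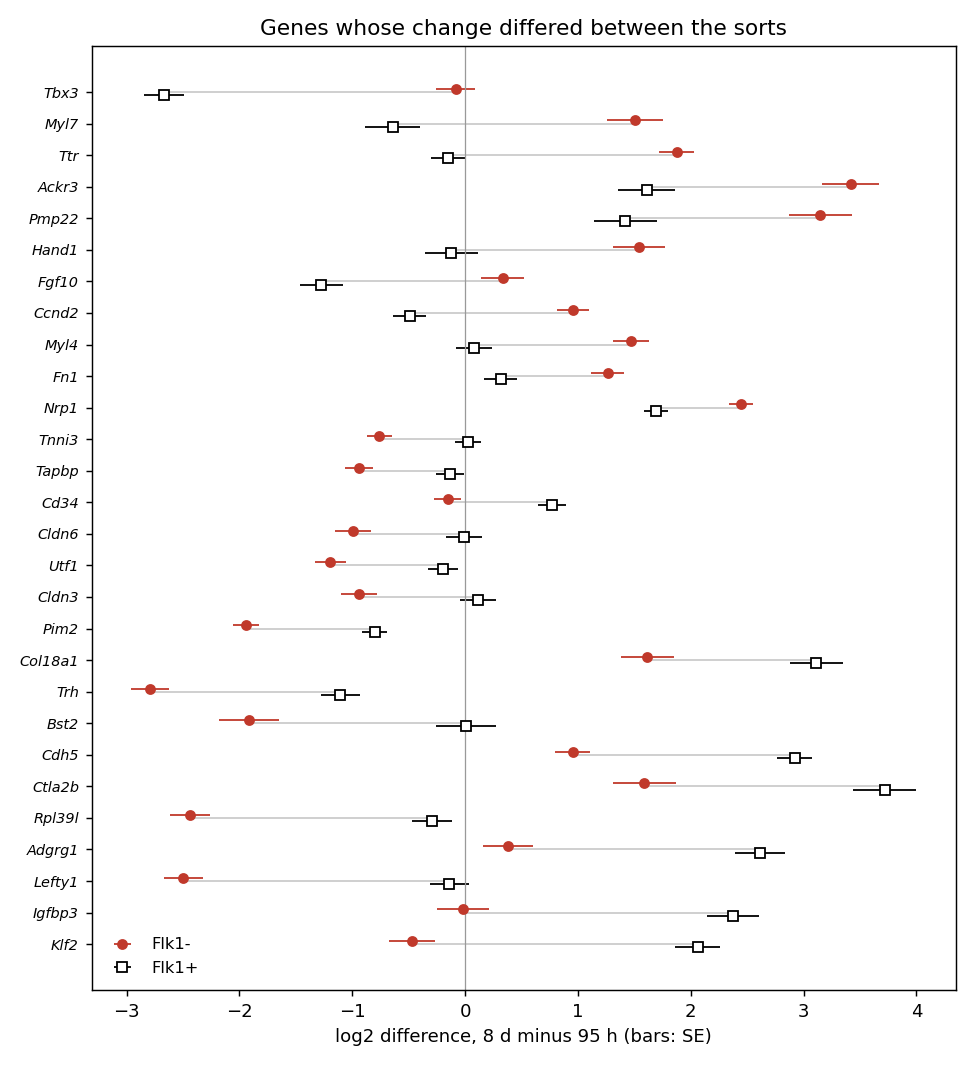
Difference between 8 d and 95 h on the log2 scale (horizontal axis, bars are SEs) in Flk1- cells (red circles) and Flk1+ cells (open squares) for 28 named genes whose change differed between the sorts, ordered by that difference. Tbx3 at the top differs by 2.58 through its fall in Flk1+ cells, and Klf2 at the bottom by -2.53 through its rise there.

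Flk1- cells at 84 h place these changes in time. From 84 h to 95 h 286 features (1.64%) were called, 184 (1.06%) higher and 102 (0.585%) lower at 95 h. The total was 668 without the 3 arrays of 84 h named above and 2156 with array weights. This comparison shares the 95 h arrays with the main one, so the values are given side by side and not correlated. Postn averaged -6.26 ± 0.18 at 84 h, -4.91 ± 0.35 at 95 h and 0.64 ± 0.22 at 8 d, and Acta2 averaged -3.06 ± 0.11, -2.23 ± 0.10 and 1.35 ± 0.17 at these times (SD, n = 4 each). For both genes the step from 84 h to 95 h was called too, at 1.35 and 0.83 (adjusted p = 0.00162 each). It was smaller than the later one, but the interval from 95 h to 8 d is many times longer. The sizes of the steps therefore do not compare rates of change.

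Snai2 and Cdh11, which rose after 95 h, were not called between 84 h and 95 h, at -0.24 (adjusted p = 0.666) and 0.12 (adjusted p = 0.941). Among streak genes Gsc averaged 3.26 ± 0.22 at 84 h, 2.56 ± 0.30 at 95 h and -0.27 ± 0.25 at 8 d, and Lhx1 averaged 3.04 ± 0.41, 1.79 ± 0.61 and -0.25 ± 0.23 (SD, n = 4 each), with each step down called. The early step of Gsc was close to the threshold (adjusted p = 0.049) and missed it with array weights (adjusted p = 0.0515). Mesp1 averaged 2.75 ± 0.74, 3.22 ± 0.35 and 0.47 ± 0.15. Its step before 95 h was not called at 0.46 (adjusted p = 0.473), but was called as a rise of 0.95 with array weights (adjusted p = 0.0217). Dnmt3b averaged 4.07 ± 0.06, 3.08 ± 0.18 and 1.48 ± 0.28, a fall in both steps.

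**Figure D3:**
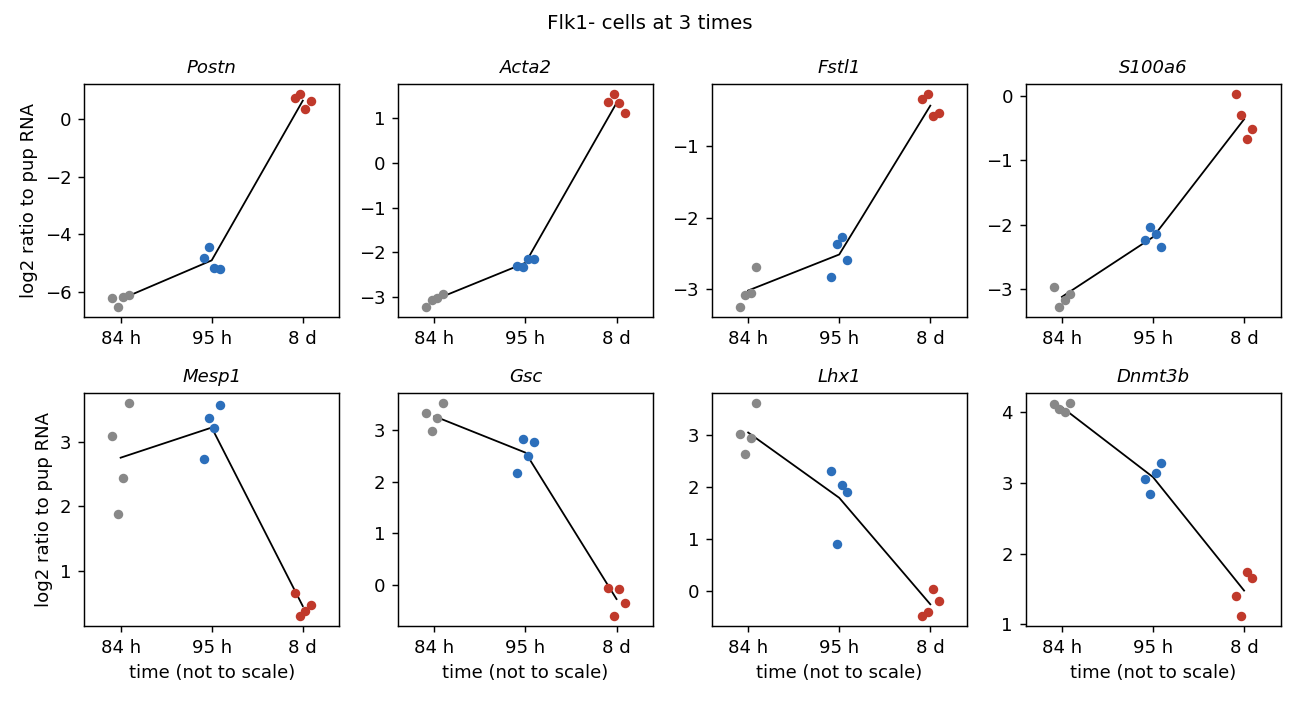
Log2 ratio to pup RNA (vertical axes, each with its own range) of 8 genes in Flk1- cells at 84 h, 95 h and 8 d (horizontal axis, not to scale), with points for 4 arrays per time and a line through the means. Postn, Acta2, Fstl1 and S100a6 climb, most of the way in the much longer interval after 95 h. Mesp1 is at 1.89 or more on every array of 84 h and 95 h and at 0.67 or less on every array of 8 d.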

How the data were processed

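The deposited series table holds 1 value per probe and array on a log scale, handled as log2 per the file's values. Dyes and RNA isolation (Qiagen RNeasy for samples, a guanidinium extract of pups for the reference) are per the labels' protocols. Feature extraction, background correction and normalization by the authors are not given in the sources used here, and without intensities dim probes could not be filtered. Of 20280 probes, 11813 had 1 gene in the platform annotation and 7908 none listed, and 559 with several stayed unnamed. Each array's median (0.046 to 0.197 as deposited) was set to 0 and probes of 1 gene were averaged, giving 17440 features. Limma 3.58.1 in R 4.3.3 (lmFit, eBayes) fitted 6 group means with 18 residual degrees of freedom, and Benjamini-Hochberg adjustment ran over all features. The script was tested on simulated data. Replicate numbers were checked as pairs by correlating same-numbered arrays' deviations from their group means. These were 0.107 to 0.437 between Flk1- and Flk1+ arrays in all 8 pairs of 8 d and 95 h, and -0.127 to 0.526 at 84 h. Numbers were taken to pair the sorts within a time because of the values at 8 d and 95 h. The random block paired the arrays of 84 h by number too, where the deviations are not clear on it. There the arrays numbered 2 gave -0.127, while Flk1- array 4 and Flk1+ array 2 gave 0.365. This pairing comes from the data, not the labels. Tables and plots used Python 3.11.15, pandas 2.3.3 and matplotlib 3.10.9. Named genes were Kdr, the 15 largest called rises and falls without overlap, up to 4 called members per list, other list members with their values, and the 8 largest differences between sorts each way, of which a part is printed. The comparison, members and lists were chosen with earlier results of these data known. A difference is limited in precision by the 4 arrays per group.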

Additional observations from a re-analysis of the deposited data

Results flagged for a closer look

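For 15 named genes 1 array lay apart from the other 3 of its group by Dixon's ratio, out of 342 groups of 4 checked (4.39%), where chance gives about 1 in 20. At 8 d array 1 stood apart for Irf1 at -0.14, Klf2 at -0.27, Klf4 at -0.62 and Stmn2 at -2.87, and array 3 for B2m at -1.14, Ddx4 at 0.92, Krt8 at 1.30 and Serpinh1 at -0.0115. At 95 h array 1 stood apart for Ascl2 at 1.99, Cnn1 at 0.0771, Kdr at -1.30 and Twist1 at -1.44, array 2 for Flt1 at 0.74 and Pmp22 at -2.03, and array 3 for Cdkn2b at 0.18.

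The change between 8 d and 95 h differed between the sorts for 28 named genes, given as the change in Flk1- cells minus that in Flk1+ cells. More positive in Flk1- cells were the chemokine receptor gene Ackr3 at 1.80, Pmp22 at 1.73 and fibronectin Fn1 at 0.95. The mesoderm and heart genes Tbx3, Hand1, Myl7 and Myl4 were at 2.58, 1.66, 2.15 and 1.39, Ttr at 2.02 and the cyclin gene Ccnd2 at 1.45. The growth factor gene Fgf10 was at 1.61, with 0.33 in Flk1- cells (not called) and a fall of 1.27 in Flk1+ cells, and Nrp1 was at 0.75.

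More negative in Flk1- cells were the stem cell genes Lefty1 and Utf1 at -2.36 and -1.0, Rpl39l at -2.14, Trh at -1.69 and Pim2 at -1.14. The junction genes Cldn6 and Cldn3 were at -0.98 and -1.06, the antigen presentation genes Bst2 and Tapbp at -1.92 and -0.81, Tnni3 at -0.78 and the collagen gene Col18a1 at -1.50. Endothelial and other genes that rose in Flk1+ cells were Cdh5 at -1.97, Cd34 at -0.92, Klf2 at -2.53, Igfbp3, an IGF-binding protein, at -2.39, Adgrg1, an adhesion receptor, at -2.23 and Ctla2b, a protease inhibitor, at -2.13.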

How the results depend on the processing

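The count of 3080 called features was 5087 without the 3 arrays of 84 h named above, 6692 with array weights and 656 with a difference of at least 1. Leaving out single arrays gave 2308 to 2992, and after quantile normalization 2135 features were higher and 2456 lower. The count of 93 differences between the sorts was 161 from only the arrays compared, 314 without the 3 arrays of 84 h, 288 with array weights, 53 with a difference of at least 1, and 47 to 101 without single arrays. The count of 286 between 95 h and 84 h was 668 without the 3 arrays of 84 h and 2156 with array weights, both chosen after seeing the data. The cause of these moves was not tested. Same-numbered Flk1- arrays of 8 d and 95 h did not deviate together (correlations -0.17 to -0.04), so the numbers were not taken to pair the 2 times. Any handling that differed between the 2 times cannot be told apart from time itself in the main comparison. With the replicate number as a block the counts were 3197 (24 arrays), 2268 (only the arrays compared) and 3129 (within time, random) for the main comparison, and 87, 154 and 251 for the difference between the sorts. Pairing the sorts within time changed the call of 9 named genes for the difference between the sorts, all gained, and of Twist1 and H19 (adjusted p = 0.0508) for the main comparison, and of no other named gene.

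Of 150 named called genes, 142 kept direction and call in all 18 settings, and none of the 150 reversed. The exceptions were Alb, Ascl2, Col4a1, Flt1, H19, Kdr, Klf4 and Ror2, of which Col4a1, Flt1 and Ror2 lost their call with the block on only the arrays compared. Ascl2 lost it in both fits of only the arrays compared. Of 28 differences between sorts 17 held in all 26 settings. Fn1, Cldn6, Cldn3, Col18a1, Pmp22 and Tapbp each lost the call in 13 or more, and Tnni3, Nrp1, Hand1, Bst2 and Cd34 in 1 to 5. Named genes were picked in part for large differences on these same arrays. The 142 of 150 and the 17 of 28 therefore do not describe all called features. Genes not called changed sign after quantile normalization, at -0.14 for Actc1, -0.27 for Gli1, 0.018 for Dnmt1 and 0.0827 for Tbx3. Without single arrays Nkx2-5 ranged from -0.0759 to 0.0111, Gli1 from -0.0236 to 0.0947 and Igfbp3 from -0.24 to 0.19. Without intensities, background correction and a filter on dim probes could not be tried, so a difference between probes near background cannot be told from a small one.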

Other observations

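Some lists held few calls beside single large changes. Ednrb, the endothelin receptor of neural crest, had 0.07, -0.43, -0.31 and -0.28 at 8 d, against -2.97, -2.76, -2.82 and -2.99 at 95 h (difference 2.65, SE 0.24, adjusted p = 6.48e-08). It and Snai2 were the 2 called members of 10 neural crest genes. Hey2, a Notch target of heart and arteries, rose by 1.67 (SE 0.25) in a Notch list with 2 higher and 2 lower of 17, and Hapln1, a hyaluronan link protein of cartilage and heart valves, rose by 1.47 (SE 0.22). Hoxa10 rose by 1.56 (SE 0.21) among 11 Hox and cofactor genes with 4 higher and 0 lower. Of 7 kidney and intermediate mesoderm genes 3 were lower, with Sall1 at -1.38 (SE 0.16) beside Lhx1. Jarid2, a cofactor of Polycomb repression, fell by 1.37 (SE 0.25), and Gata6, an endoderm and heart factor, rose by 0.53 (SE 0.12), or by 1.19 from the probe with the largest SD. Neuron and glia genes had 2 higher and 5 lower of 17, with the growth cone gene Gap43 at -0.83 (SE 0.17). Genes of oxidative phosphorylation had 0 higher and 2 lower of 19, and glycolysis and hypoxia genes 4 higher and 1 lower of 23. The counts of this paragraph stand beside 15% higher and 8.51% lower among all named genes. Alb, serum albumin, was at -0.46 (SE 0.14, adjusted p = 0.0239), a call that ended in 5 of 18 alternative settings.

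Within 95 h, some basement membrane and matrix genes were higher on arrays 1 and 2 than on arrays 3 and 4. These genes were picked after their values were seen, and the split was not tested. Col4a1 gave -0.14, -0.08, -1.44 and -1.92 on arrays 1 to 4, Sparc -0.87, -1.07, -2.36 and -2.62, and Nid1 -0.71, -1.17, -2.30 and -2.11. Lama1, a laminin chain of early basement membranes, gave 2.11, 1.79, 0.82 and 1.02, and at 8 d it gave 1.78, 1.71, 2.38 and 2.58, which overlaps (difference 0.68, adjusted p = 0.0656). Postn had the same order with a narrower gap, at -4.82, -4.45, -5.17 and -5.19, and Acta2 did not, at -2.31, -2.33, -2.15 and -2.14.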
